A study of Mus musculus with 2 samples.

Results

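Colony-stimulating factor and Flt3 receptors are described here by 6 genes, *Csf1r*, *Csf2ra*, *Csf2rb*, *Csf2rb2*, *Csf3r* and *Flt3*, out of 32285 genes in the count matrices. They were picked by name as the genes for the chains that bind the macrophage, granulocyte-macrophage and granulocyte colony-stimulating factors and Flt3 ligand. All 6 had UMIs in both libraries, among 16909 genes with a UMI in kept control cells and 17083 in kept AdipoΔ/Δ cells.

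*Csf1r* and *Flt3* encode receptor tyrosine kinases that pair up when ligand binds and then phosphorylate each other. *Csf3r*, *Csf2ra* and the beta chains encoded by *Csf2rb* and *Csf2rb2* have no kinase of their own and signal through bound Janus kinases and STAT factors. The alpha chain encoded by *Csf2ra* gives specificity for its ligand, and the beta chain carries the signal and is shared with the receptors for other cytokines.

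The cells were sorted CD45+ cells of brown adipose tissue from male C57Bl/6 mice, 16 weeks old per the labels, 1 library per group, and every mouse carried the same alleles, AdipoQ-CreERT2 and ATGLfl/fl. The paper gives a younger age than the labels do. Control mice were given vehicle; AdipoΔ/Δ mice were given tamoxifen (10 mg/ml, 200 µL into the peritoneum every other day for 1 week, then 2 weeks of rest), which switches on Cre in adipocytes and removes ATGL there. The Cre driver is not meant to act in the leukocytes that were sequenced, so a difference in them is a difference in cells whose own ATGL gene was not the target. Tamoxifen and loss of ATGL cannot be told apart, since no tamoxifen-treated mouse without Cre was sequenced, and it is not stated how many mice were pooled.

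The comparison answers which leukocytes carry each receptor mRNA, and how far the level in each kind of cell and in the whole sort differs between the 2 libraries. Kept cells numbered 2279 in control and 2016 in AdipoΔ/Δ, at medians of 3678 and 3942 UMIs. The 6 receptor genes were kept out of the clustering and of all marker lists, so they did not directly set the classes in which they are measured. Levels are summed UMIs of a population scaled to the same total (CPM), with 95% intervals that cover counting error only; with 1 library per group, spread between mice is unknown and no test was possible. Since reads come from 3′ ends, levels of different genes are not ranked; the joint UMIs of *Csf2rb* and *Csf2rb2* are split only as counts. *Ptprc*, the gene of the sorting marker CD45, had a UMI in 80.4% of cells in each library. As a floor for detection, T, B and NK cell-like cells (822 and 506 cells, median 3443.5 and 4942.5 UMIs) are given beside each share.

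Monocyte-like cells formed 3 clusters: Ly6Chigh (374 control and 175 AdipoΔ/Δ cells; led by *Chil3*, *Vcan*, *Cxcl10*), and Ly6Clow led by *Cd300e* (249 and 225) and by *Gngt2* (148 and 95). Macrophage-like cells also formed 3: resident (62 and 134; *Folr2*, *Lyve1*, *Cd209f*), matrix (49 and 178; *Lyz1*, *Retnla*, *Fcrls*) and lipid-associated (12 and 85; *Gpnmb*, *Cd63*, *Fabp5*). By number of cells, resident was the largest macrophage-like cluster in control, and matrix in AdipoΔ/Δ. Neutrophil-like cells numbered 314 and 173, dendritic cell-like cells 85 and 114. B cell-like cells led with haemoglobin genes and are not compared between libraries. Their 5 erythroid genes summed to 19098 CPM in control and 63.8 CPM in AdipoΔ/Δ, and these cells are part of the T, B and NK cell-like floor. Orders below name the monocyte-, macrophage-, neutrophil- and dendritic cell-like kinds with at least 20 cells; the unnamed *Col3a1*-led cluster (57 and 218 cells, median 997 and 938.5 UMIs) held *Csf1r* at 702 CPM (539.5 to 898) and 533 CPM (461 to 614) and *Csf2ra* at 279 CPM (180.3 to 411) and 215 CPM (170.2 to 268), and is left out of them. It also held *Csf2rb* at 178 and 117 CPM, and *Csf2rb2* at 11.1 CPM (0.282 to 62.1) and 27.2 CPM (13.1 to 50.1). Its *Csf3r* level was 134 CPM (69.1 to 234) and 38.1 CPM (20.8 to 63.9), ratio 0.285 (0.122 to 0.674). *Flt3* there stood at 44.6 CPM (12.1 to 114) and 10.9 CPM (2.97 to 27.9). In this cluster the 10 neutrophil markers summed to 1783 CPM in control and 321 CPM in AdipoΔ/Δ. The 10 macrophage markers summed to 2608 and 4712 CPM, and the 7 fibroblast markers to 11.1 and 833 CPM. Their part in these receptor values was not tested.

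*Csf1r* (ENSMUSG00000024621, 18:61100598-61132149, plus strand) encodes the receptor for macrophage colony-stimulating factor and interleukin 34. In control, resident macrophage-like cells at 1186 CPM (1047 to 1339) and *Cd300e*-led Ly6Clow monocyte-like cells at 1163 CPM (1085 to 1245) overlapped at the top. Below them, each apart from its neighbours, came *Gngt2*-led Ly6Clow cells at 973 CPM (908 to 1042), Ly6Chigh cells at 496 CPM (469.5 to 524) and matrix cells at 261 CPM (204 to 328). *Csf1r* thus marked the mononuclear phagocytes in steps, with resident macrophage-like and Ly6Clow cells above Ly6Chigh and matrix cells. Neutrophil-like cells at 79.7 CPM (63.7 to 98.6) and dendritic cell-like cells at 57.0 CPM (38.5 to 81.4) overlapped, and T, B and NK cell-like cells held 10.8 CPM (7.62 to 14.8). *Csf1r* had a UMI in 91.9% of resident, 91.2% of *Gngt2*-led, 82.7% of *Cd300e*-led, 83.7% of Ly6Chigh and 63.3% of matrix cells, against 3.28% of T, B and NK cell-like cells.

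In AdipoΔ/Δ the order of *Csf1r* shifted at the top: *Cd300e*-led cells at 1423 CPM (1325 to 1526) stood above resident cells at 1210.0 CPM (1139 to 1284), without overlap. Then came *Gngt2*-led cells at 874 CPM (792 to 963) and Ly6Chigh cells at 529 CPM (489 to 571), apart from each other, and matrix cells at 366 CPM (335 to 399) that overlapped lipid-associated cells at 339 CPM (306 to 375). The *Csf1r* ratio, AdipoΔ/Δ over control, was 1.22 (1.11 to 1.35) in *Cd300e*-led, 0.898 (0.796 to 1.01) in *Gngt2*-led and 1.07 (0.969 to 1.17) in Ly6Chigh cells. So of the 3 monocyte-like clusters only the *Cd300e*-led one moved beyond counting error. Over all Ly6Clow cells *Csf1r* went from 1059 CPM (1009 to 1111) to 1172 CPM (1106 to 1240), ratio 1.11 (1.03 to 1.19), and over all monocyte-like cells from 708 to 821 CPM, ratio 1.16 (1.09 to 1.23). With the 3 monocyte-like clusters held at the same weights the latter *Csf1r* ratio was 1.07. The 10 macrophage markers summed to 1603 CPM in control monocyte-like cells (9 of 10 genes, *Apoe* first at 1100.4, *Mertk* 0) and 2626 CPM in AdipoΔ/Δ (10 of 10, *Apoe* 1485). In *Cd300e*-led cells they summed to 1964 CPM (9 of 10, *Apoe* 1437, *Mertk* 0) and 2013 CPM (10 of 10, *Apoe* 1213), with *C1qa* at 2 and 25 UMIs. Their part in the *Csf1r* ratios of monocyte-like cells was not tested.

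Resident macrophage-like cells kept their *Csf1r* level, ratio 1.02 (0.891 to 1.17), while matrix cells rose, ratio 1.40 (1.10 to 1.82). Lipid-associated cells, with 8 *Csf1r* UMIs in control and 388 in AdipoΔ/Δ, had ratio 1.20 (0.603 to 2.80). Summed over macrophage-like cells *Csf1r* went the other way, from 652 CPM (585 to 725) to 579 CPM (554 to 605), ratio 0.888 (0.791 to 0.999). No macrophage-like cluster had a *Csf1r* ratio below 1, so the summed fall goes with the weights of the clusters: lipid-associated cells rose from 5.38% to 33.4% of the UMIs of the class, while resident cells, with the most *Csf1r*, fell from 42.1% to 26.3% and matrix cells from 52.5% to 40.3%. With the clusters held at the same weights the ratio was 1.13, with the lipid-associated cluster left out 1.04, and with a 2% mitochondrial limit 1.33, each on the other side of 1.

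*Csf1r* also had higher CPM in AdipoΔ/Δ in the 2 myeloid kinds with low levels. In neutrophil-like cells it went from 79.7 CPM to 159 CPM (127 to 197), ratio 2.00 (1.46 to 2.73) from 85 and 84 UMIs beside a median log2 ratio of 0.29 for all genes there, with a UMI in 20.7% and 28.9% of cells against 3.28% and 6.92% of T, B and NK cell-like cells. In dendritic cell-like cells it went from 57.0 CPM to 97.4 CPM (76.5 to 122), ratio 1.71 (1.10 to 2.70), but the ratio fell below 1 under 3 alternatives: 0.750 with a 2% mitochondrial limit, 0.670 without integration and 0.991 without the deepest 5% of cells. At equal depth of 1000 UMIs per cell the *Csf1r* shares were 7.85% (5.04 to 11.5) and 9.55% (5.45 to 15.3) in neutrophil-like cells and 5.88% (1.94 to 13.2) and 5.41% (2.01 to 11.4) in dendritic cell-like cells, so neither share moved beyond counting error. The markers of macrophages moved with these *Csf1r* values. Their 10-gene list summed to 302 CPM in control neutrophil-like cells (9 of 10 genes, *Apoe* first at 178, *Mertk* 0) and 612 CPM in AdipoΔ/Δ (10 of 10, *Apoe* 256). In dendritic cell-like cells it summed to 260.4 CPM (7 of 10, *Cd68* first at 148, with *C1qa*, *Mertk* and *Ms4a7* at 0) and 436 CPM (8 of 10, *Cd68* 218.5, with *Mertk* and *Ms4a7* at 0). The part of such RNA in the *Csf1r* values was not tested.

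**Figure D1:**
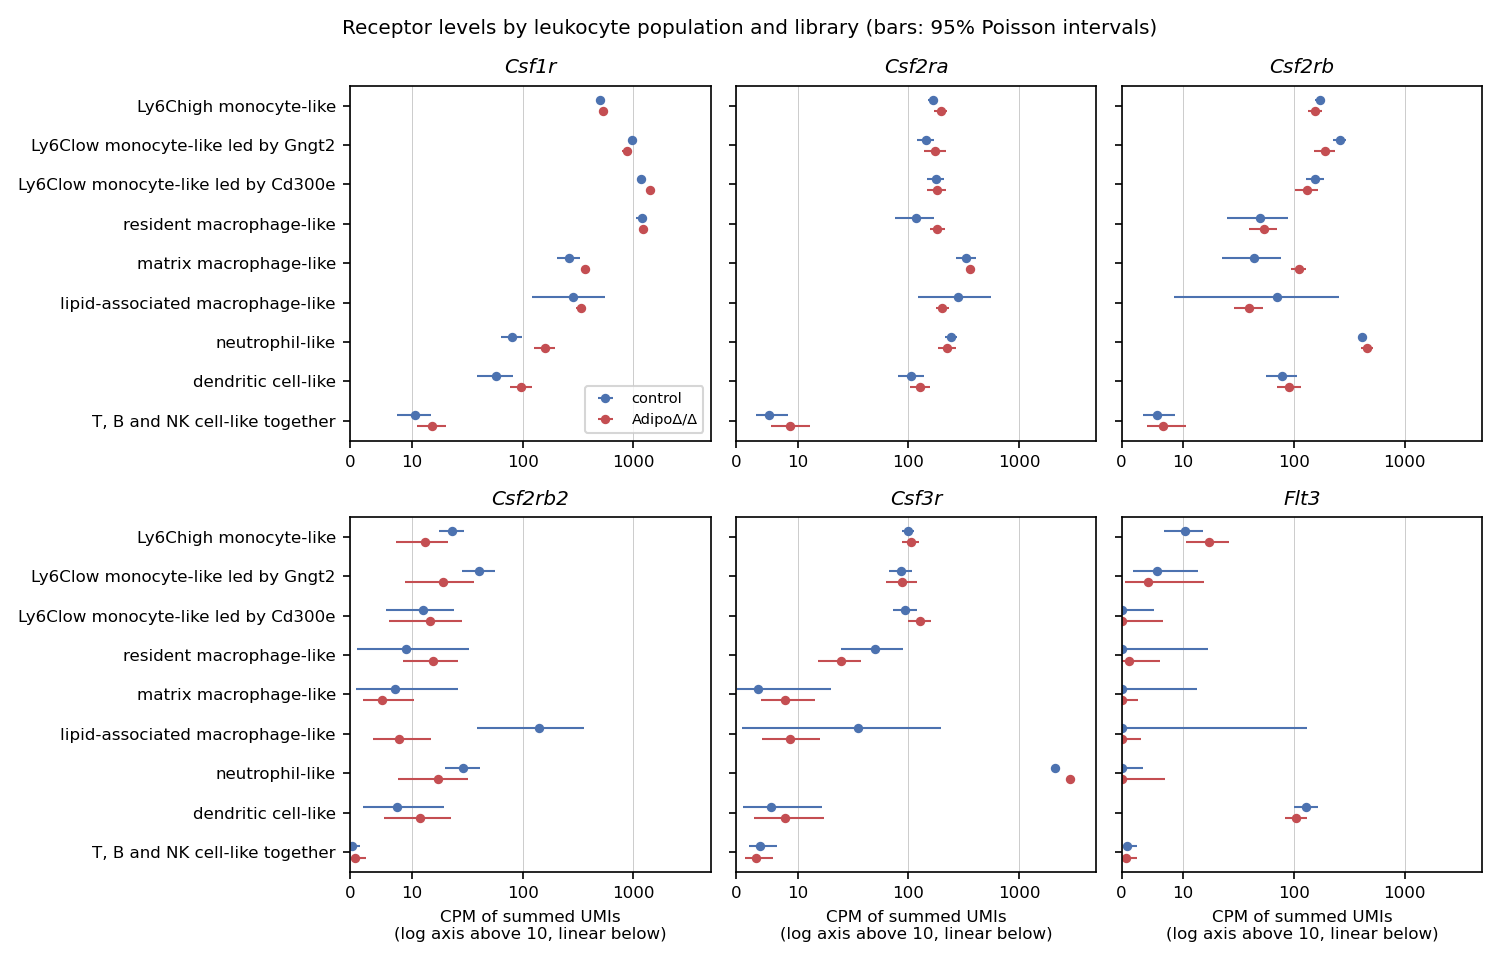
Level of each receptor gene in CPM (log axis above 10, linear below) by population, 1 panel per gene, blue control and red AdipoΔ/Δ, bars 95% Poisson intervals. *Csf1r* spans monocyte- and macrophage-like cells, *Csf3r* stands out in neutrophil-like cells and *Flt3* in dendritic cell-like cells.

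*Csf2ra* (ENSMUSG00000059326, 19:61223957-61228429, minus strand) encodes the alpha chain that binds granulocyte-macrophage colony-stimulating factor. Promoters are shown so that the letters GAGGAA or TTCCTC, the core of sites for the myeloid factor PU.1 (gene *Spi1*), can be looked for in them. In *Csf2ra* they occur 2 times, starting at −14 and −8 from the gene start (chr19:61228369-61228668, minus strand).
Csf2ra promoter: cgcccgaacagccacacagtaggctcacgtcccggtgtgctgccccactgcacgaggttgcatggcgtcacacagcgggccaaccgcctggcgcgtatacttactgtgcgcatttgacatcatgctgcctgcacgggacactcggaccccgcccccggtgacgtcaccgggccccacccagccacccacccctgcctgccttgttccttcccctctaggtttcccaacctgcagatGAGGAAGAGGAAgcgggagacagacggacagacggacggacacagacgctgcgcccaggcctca

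Windows run from 250 bases before to 50 after the RefSeq gene start, for the 4 of the 6 receptor genes in the promoter table (*Csf2ra*, *Csf2rb2*, *Csf3r* and *Flt3*; *Csf1r* and *Csf2rb* are not among them). The letters occur on either strand in 9289 of 32851 such windows (28.3%), so a match is a description of the sequence only and the lack of a match says nothing of the factor. *Csf2rb2* holds 2 matches, at −167 and 29. The RefSeq start is the annotated gene's first base for *Csf2rb2* and *Flt3*, and lies 11 bases inside the annotated gene for *Csf2ra* and 109 for *Csf3r*.

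In control the *Csf2ra* level was 333 CPM (268 to 408) in matrix macrophage-like cells, which overlapped neutrophil-like cells at 245 CPM (216 to 276). Apart from these, and each overlapping the next, came *Cd300e*-led at 178 CPM (149 to 212), Ly6Chigh at 167 CPM (152 to 183), *Gngt2*-led at 144 CPM (120.1 to 172), resident macrophage-like at 117 CPM (76.6 to 172) and dendritic cell-like cells at 106 CPM (80.4 to 138). *Csf2ra* was thus spread over all named myeloid kinds, in an order unlike that of *Csf1r*, with matrix cells first and resident cells near the end. T, B and NK cell-like cells held 5.38 CPM (3.24 to 8.40) in control and 8.85 CPM (5.73 to 13.1) in AdipoΔ/Δ. In AdipoΔ/Δ matrix cells stood alone at 362 CPM (331 to 396), and the rest overlapped in turn: neutrophil-like 226 CPM (187 to 269.9), lipid-associated 204 CPM (178 to 232), Ly6Chigh 196 CPM (172 to 222), resident 182 CPM (156 to 213), *Cd300e*-led 181 CPM (147 to 219.6), *Gngt2*-led 175 CPM (139 to 218) and dendritic cell-like 128 CPM (104 to 156).

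Between libraries the interval of the *Csf2ra* ratio held 1 in most kinds of cell. The ratio was 1.09 (0.870 to 1.37) in matrix, 0.921 (0.735 to 1.15) in neutrophil-like, 1.17 (0.997 to 1.38) in Ly6Chigh and 1.20 (0.854 to 1.70) in dendritic cell-like cells. It was 1.21 (0.907 to 1.62) in *Gngt2*-led and 1.01 (0.771 to 1.33) in *Cd300e*-led cells. Lipid-associated cells, with 8 and 233 UMIs, had ratio 0.720 (0.360 to 1.69). Among these named kinds resident macrophage-like cells had an interval above 1, ratio 1.56 (1.02 to 2.45) from 26 and 164 UMIs, and the *Csf2ra* ratio over all monocyte-like cells, 164 and 188 CPM, was 1.14 (1.01 to 1.29). Over macrophage-like cells it was 239 and 262 CPM, ratio 1.09 (0.907 to 1.33), and this fell to 0.854 with a 2% mitochondrial limit. *Csf2ra* had a UMI in 73.5% and 71.3% of matrix, 55.9% and 60% of Ly6Chigh, 50.6% and 42.8% of neutrophil-like and 27.4% and 60.4% of resident cells, against 2.19% and 3.56% of T, B and NK cell-like cells. Resident cells were deeper in AdipoΔ/Δ (medians 2681 and 5847 UMIs). At 1000 UMIs per cell their *Csf2ra* shares were 13.6% (6.04 to 25.0) and 18.0% (11.7 to 25.7), which overlap. The 10 neutrophil markers in resident cells summed to 3374 CPM in control and 240.2 CPM in AdipoΔ/Δ, and their part in the *Csf2ra* ratio was not tested.

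*Csf2rb* (ENSMUSG00000071713, 15:78325752-78353847, plus strand) encodes the beta chain shared by the receptors for granulocyte-macrophage colony-stimulating factor, interleukin 3 and interleukin 5. Neutrophil-like cells came first, apart from all others, at 416 CPM (378 to 456) in control and 457 CPM (401 to 518) in AdipoΔ/Δ. In control *Gngt2*-led cells at 261 CPM (228 to 297) followed, apart from Ly6Chigh cells at 171 CPM (155 to 187), which overlapped *Cd300e*-led cells at 156 CPM (128 to 188). *Csf2rb* was thus a gene of neutrophil- and monocyte-like cells in control, with little in macrophage-like cells. Dendritic cell-like cells at 77.9 CPM (55.9 to 106), resident cells at 49.6 CPM (24.8 to 88.8) and matrix cells at 43.4 CPM (22.4 to 75.9) came last of the named myeloid kinds and overlapped, and T, B and NK cell-like cells held 5.66 CPM (3.46 to 8.75). In AdipoΔ/Δ all *Csf2rb* levels below neutrophil-like cells overlapped in turn: *Gngt2*-led 190.3 CPM (153 to 234), Ly6Chigh 156 CPM (134 to 179), *Cd300e*-led 130.0 CPM (102 to 164), matrix 111 CPM (94.0 to 129.9), dendritic cell-like 90.8 CPM (70.7 to 115), resident 53.4 CPM (39.4 to 70.8) and lipid-associated cells 39.3 CPM (28.7 to 52.6).

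*Csf2rb* was lower in AdipoΔ/Δ in *Gngt2*-led cells, ratio 0.730 (0.564 to 0.937) from 224 and 89 UMIs. In the same cells the 10 macrophage markers summed to 1668 CPM in control (9 of 10 genes, *Apoe* first at 1164, *Mertk* 0) and 4092 CPM in AdipoΔ/Δ (10 of 10, *Apoe* 1979.9), with *C1qa* at 6 and 192 UMIs. The 10 neutrophil markers summed to 247 CPM in control and 79.1 CPM in AdipoΔ/Δ there. The part of macrophage and neutrophil RNA in the lower *Csf2rb* of *Gngt2*-led cells was not tested. *Csf2rb* was level within counting error in Ly6Chigh cells, ratio 0.912 (0.766 to 1.08), *Cd300e*-led cells, ratio 0.834 (0.611 to 1.13), and neutrophil-like cells, ratio 1.10 (0.936 to 1.29). Over all Ly6Clow cells *Csf2rb* went from 213 CPM (191 to 237) to 158 CPM (134 to 184), ratio 0.739 (0.609 to 0.894), and over all monocyte-like cells from 187 to 157 CPM, ratio 0.839 (0.737 to 0.952). In matrix macrophage-like cells it went the other way, ratio 2.55 (1.42 to 5.05) from 12 and 153 UMIs, while resident cells stayed at 1.08 (0.551 to 2.30). Lipid-associated cells, with 2 and 45 *Csf2rb* UMIs, had ratio 0.557 (0.145 to 4.74). The fall of *Csf2rb* in Ly6Clow cells and its rise in matrix cells are thus opposite in direction with intervals on opposite sides of 1, and over all macrophage-like cells, 47.5 and 71.9 CPM, the *Csf2rb* ratio was 1.51 (1.00 to 2.38), or 1.38 with the clusters at the same weights.

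*Csf2rb* had a UMI in 67.2% and 67.1% of neutrophil-like, 53.7% and 53.1% of Ly6Chigh, 62.2% and 49.5% of *Gngt2*-led and 14.3% and 39.3% of matrix cells, against 1.95% and 2.96% of T, B and NK cell-like cells. At 1000 UMIs per cell the *Csf2rb* shares were 17.7% (13.9 to 22.1) and 10.7% (7.31 to 15.1) of all Ly6Clow cells and 6.12% (1.28 to 16.9) and 8.24% (4.58 to 13.4) of matrix cells. At equal depth, then, the matrix shares stand close together where the unthinned ones were far apart. The Ly6Clow share was still lower in AdipoΔ/Δ, in the direction of the CPM ratio. Its 2 intervals overlap at their ends, which does not show that the shares are equal.

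*Csf2rb2* (ENSMUSG00000071714, 15:78282507-78305721, minus strand) encodes the second beta chain of the mouse, which binds interleukin 3 receptor alpha, and lies 20030 bases from *Csf2rb*. The 2 genes are close paralogs with identical stretches: 797 of 4710 windows of 55 bases in the main *Csf2rb* transcript (16.9%) and 797 of 4686 in that of *Csf2rb2* (17.0%) are shared, though 0 of 446 in the last 500 bases of each. Reads from shared windows cannot be assigned, so it is uncertain how fully the counts keep *Csf2rb* and *Csf2rb2* apart. *Csf2rb2* had 149 UMIs in control and 96 in AdipoΔ/Δ, 10.0% (8.55 to 11.7) and 8.71% (7.11 to 10.5) of the UMIs of both beta-chain genes.

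In control *Csf2rb2* stood at 40.8 CPM (28.4 to 56.7) in *Gngt2*-led, 29.1 CPM (19.8 to 41.3) in neutrophil-like, 23.0 CPM (17.5 to 29.6) in Ly6Chigh and 12.6 CPM (5.78 to 24.0) in *Cd300e*-led cells, each overlapping the next. In AdipoΔ/Δ the same 4 overlapped at 19.2 CPM (8.80 to 36.5), 17.1 CPM (7.80 to 32.4), 13.04 CPM (7.46 to 21.2) and 14.4 CPM (6.24 to 28.5). Resident macrophage-like cells had 2 and 14 *Csf2rb2* UMIs, 9.02 CPM (1.09 to 32.6) and 15.6 CPM (8.51 to 26.1), in AdipoΔ/Δ between neutrophil-like and *Cd300e*-led cells, and 22.6% (12.9 to 35.0) of the beta-chain UMIs there were of *Csf2rb2*. Dendritic cell-like cells held 7.60 and 11.8 CPM of *Csf2rb2*, matrix cells 7.24 and 5.07 CPM, and lipid-associated cells in AdipoΔ/Δ 7.87 CPM. By their intervals *Csf2rb2* was thus higher in *Gngt2*-led than in *Cd300e*-led cells in control, and low counts leave the other neighbours unordered. The *Csf2rb2* ratio was 0.568 (0.305 to 0.999) in Ly6Chigh, 0.472 (0.200 to 1.00) in *Gngt2*-led and 0.587 (0.246 to 1.26) in neutrophil-like cells. Over all monocyte-like cells, 24.9 and 14.7 CPM, it was 0.590 (0.386 to 0.881). Kinds with too few *Csf2rb2* UMIs went both ways. Their ratios were 1.14 in *Cd300e*-led, 1.73 in resident and 1.56 in dendritic cell-like cells, but 0.701 in matrix and 0.0557 in lipid-associated cells. The 10 macrophage markers, given above for all monocyte-like cells, summed to 1484 CPM in control Ly6Chigh cells (9 of 10 genes, *Apoe* first at 988, *Mertk* 0) and 2344 CPM in AdipoΔ/Δ (10 of 10, *Apoe* 1419). The 10 neutrophil markers went from 409 to 193 CPM in Ly6Chigh and from 247 to 79.1 CPM in *Gngt2*-led cells. The part of both marker lists in the *Csf2rb2* ratios was not tested. T, B and NK cell-like cells had 1 and 2 *Csf2rb2* UMIs, in 0.122% and 0.395% of cells, against 13.1% and 7.43% of Ly6Chigh cells.

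A receptor for granulocyte-macrophage colony-stimulating factor needs the products of both *Csf2ra* and *Csf2rb*. UMIs of both were found in 135 of 374 Ly6Chigh cells in control, 36.1% (31.2 to 41.2), and 67 of 175 in AdipoΔ/Δ, 38.3% (31.1 to 45.9). In neutrophil-like cells *Csf2ra* and *Csf2rb* met in 37.6% (32.2 to 43.2) and 27.7% (21.2 to 35.1) of cells, and in matrix cells in 6 of 49, 12.2% (4.63 to 24.8), and 60 of 178, 33.7% (26.8 to 41.2). *Gngt2*-led cells had both in 28.4% (21.3 to 36.4) and 27.4% (18.7 to 37.5), and lipid-associated cells in AdipoΔ/Δ in 25.9% (17.0 to 36.5). T, B and NK cell-like cells had both in 0.365% and 0.791%. At 1000 UMIs per cell *Csf2ra* and *Csf2rb* met in 9.90% and 8.28% of neutrophil-like and 2.48% and 1.23% of Ly6Chigh cells. The height and the order of these *Csf2ra* and *Csf2rb* shares thus depend on depth, which differs between the kinds of cell (control medians 6822.5 UMIs in Ly6Chigh and 2968.5 in neutrophil-like cells). Matrix cells also differed in depth between the libraries (medians 3998 and 5935.5 UMIs), and their shares with both genes are given only without thinning.

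*Csf3r* (ENSMUSG00000028859, 4:126024550-126044440, plus strand) encodes the receptor for granulocyte colony-stimulating factor. Its promoter (chr4:126024409-126024708, plus strand) holds 1 match of the PU.1 core letters, at −86 from the RefSeq start, 126024659, which is 109 bases inside the annotated gene, so the match lies inside it too.
Csf3r promoter: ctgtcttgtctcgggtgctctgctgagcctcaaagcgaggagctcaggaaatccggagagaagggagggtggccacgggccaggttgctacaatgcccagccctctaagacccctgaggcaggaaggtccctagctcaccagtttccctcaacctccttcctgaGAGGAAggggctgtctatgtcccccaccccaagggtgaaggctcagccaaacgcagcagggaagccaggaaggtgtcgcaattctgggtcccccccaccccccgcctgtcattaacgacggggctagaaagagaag

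*Csf3r* was far above all other levels of the same gene in neutrophil-like cells, at 2110.3 CPM (2024 to 2199) in control and 2898 CPM (2755 to 3047) in AdipoΔ/Δ, and 96.2% and 98.3% of these cells had a UMI against 1.09% and 0.988% of T, B and NK cell-like cells. Monocyte-like cells came next, with overlap among them: Ly6Chigh 98.8 CPM (87.1 to 112), *Cd300e*-led 94.1 CPM (72.9 to 119.5) and *Gngt2*-led 86.2 CPM (67.7 to 108) in control, and 105 CPM (87.8 to 125), 126 CPM (98.5 to 159.7) and 87.7 CPM (62.9 to 119) in AdipoΔ/Δ. *Csf3r* therefore set neutrophil-like cells apart by more than an order of magnitude, with a lower shelf shared by all 3 monocyte-like clusters. Matrix cells held 3.62 CPM (0.0917 to 20.2) and 7.97 CPM (3.98 to 14.3), and dendritic cell-like cells 5.70 CPM (1.18 to 16.7) and 7.90 CPM (2.90 to 17.2). Lipid-associated cells in AdipoΔ/Δ held 8.74 CPM (4.19 to 16.1). Resident cells held 49.6 CPM (24.8 to 88.8) and 24.5 CPM (15.3 to 37.0), ratio 0.493 (0.229 to 1.13). The 10 neutrophil markers summed to 3374 CPM in control resident cells (9 of 10 genes, *S100a9* first at 1502, *Il1r2* 0) and 240.2 CPM in AdipoΔ/Δ (7 of 10, *Mmp9* first at 133.5), and their part in the *Csf3r* value of resident cells was not tested.

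In neutrophil-like cells *Csf3r* was higher in AdipoΔ/Δ, ratio 1.37 (1.29 to 1.47) from 2250 and 1529 UMIs. These cells had a median mitochondrial share of 1.72% in control and 0.395% in AdipoΔ/Δ, and the *Csf3r* ratio was 1.53 with a mitochondrial limit of 2% and of 5%; the part of cell quality was not tested. At 1000 UMIs per cell 83.3% (78.5 to 87.4) and 94.9% (90.2 to 97.8) of these cells kept a *Csf3r* UMI, so the rise is also seen at equal depth. Every gene is read against a total that itself moved: the 10 neutrophil markers made up 26.1% of the UMIs of control neutrophil-like cells and 18.2% in AdipoΔ/Δ, and the median log2 ratio of all genes was 0.29, or 0.14 with these markers left out of the totals. With them left out the *Csf3r* ratio was 1.24. At a finer resolution neutrophil-like cells split into a *Retnlg*-led group (152 and 112 cells) and a *Camp*-led group (162 and 61). *Csf3r* rose in both, from 1992 CPM (1883 to 2106) to 2962 CPM (2791 to 3141) in the first and from 2278 CPM (2139 to 2424) to 2736 CPM (2478 to 3015) in the second. In monocyte-like cells *Csf3r* was level within counting error, 95.4 and 107 CPM, ratio 1.12 (0.950 to 1.32).

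**Figure D2:**
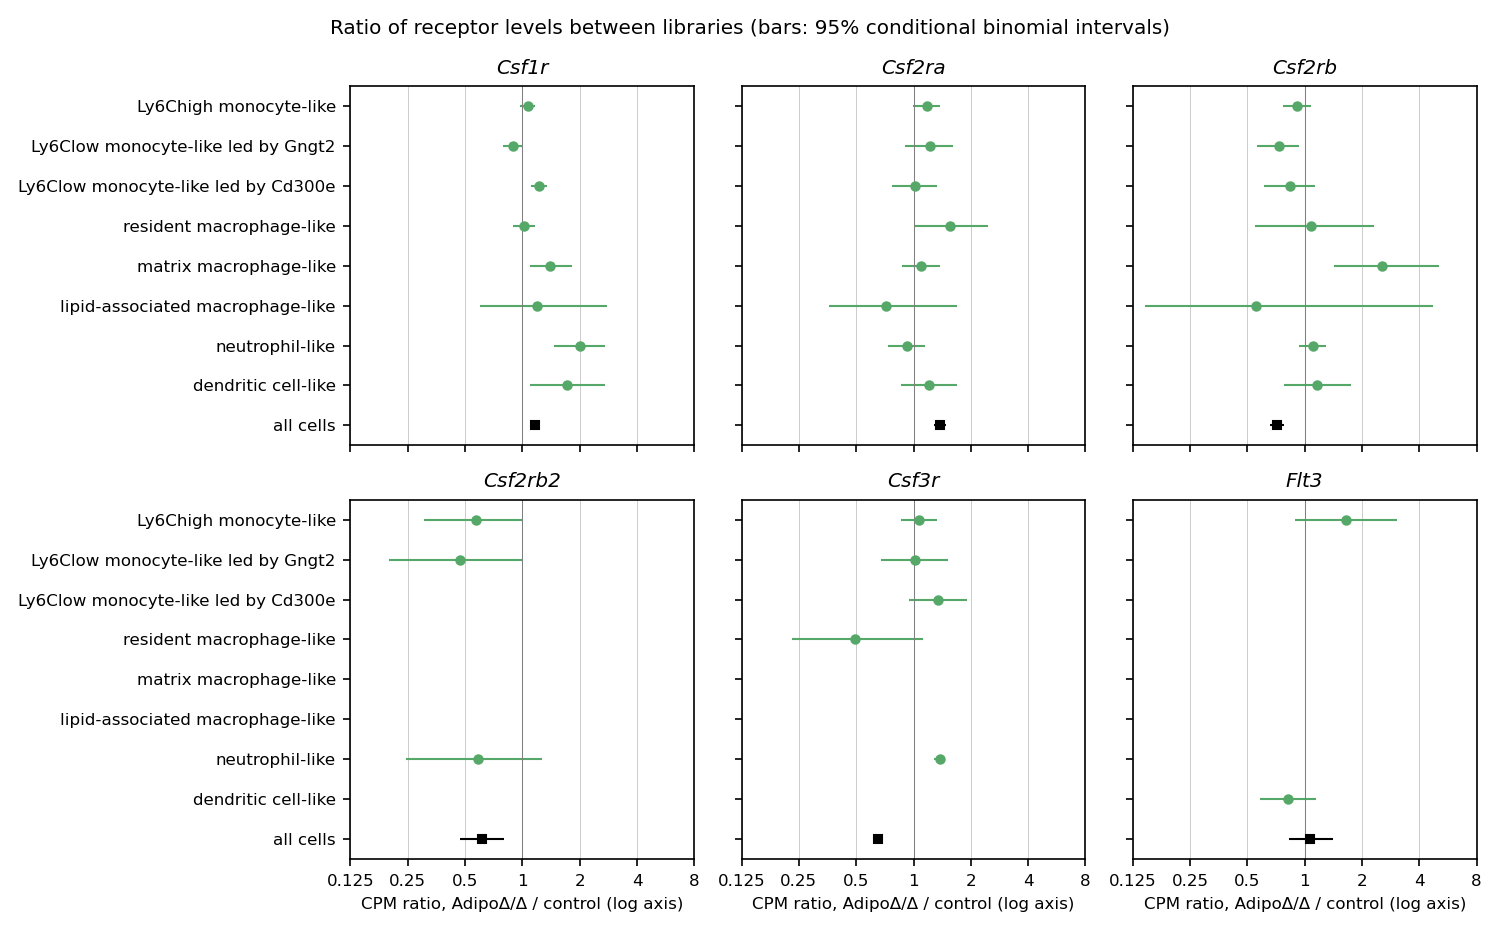
Ratio of CPM, AdipoΔ/Δ over control, for each receptor gene by population (log axis), bars 95% conditional binomial intervals, black square all cells; populations with too few UMIs have no point. *Csf3r* lies above 1 in neutrophil-like cells and below 1 in all cells.

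*Flt3* (ENSMUSG00000042817, 5:147330741-147400489, minus strand) encodes the receptor for Flt3 ligand. Its promoter (chr5:147400440-147400739, minus strand) is shown for contrast and holds 0 matches of the PU.1 core letters.
Flt3 promoter: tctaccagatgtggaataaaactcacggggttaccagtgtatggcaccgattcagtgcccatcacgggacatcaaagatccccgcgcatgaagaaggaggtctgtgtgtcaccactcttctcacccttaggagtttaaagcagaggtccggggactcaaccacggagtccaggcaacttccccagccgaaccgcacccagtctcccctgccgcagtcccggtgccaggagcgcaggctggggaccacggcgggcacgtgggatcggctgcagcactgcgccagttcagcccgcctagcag

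*Flt3* was highest in dendritic cell-like cells, at 129 CPM (100.4 to 164) in control and 105 CPM (83.5 to 131) in AdipoΔ/Δ, ratio 0.815 (0.582 to 1.14) from 68 and 80 UMIs. Ly6Chigh cells followed apart from them, at 10.3 CPM (6.81 to 15.0) and 17.1 CPM (10.6 to 26.2), ratio 1.66 (0.890 to 3.04). A *Flt3* UMI was in 43.5% and 42.1% of dendritic cell-like and 6.68% and 7.43% of Ly6Chigh cells, against 0.365% and 0.395% of T, B and NK cell-like cells. *Flt3* thus marked dendritic cell-like cells in both libraries, with no difference between them beyond counting error. *Gngt2*-led cells held *Flt3* at 5.82 CPM (1.89 to 13.6) and 4.28 CPM (0.518 to 15.4). Resident cells had 0 and 1 *Flt3* UMIs, and lipid-associated cells 0 in each library. No *Flt3* UMI was found in neutrophil-like cells (0 of 314, up to 0.955%, and 0 of 173, up to 1.73%), in *Cd300e*-led cells (0 of 249, up to 1.20%, and 0 of 225, up to 1.33%) or in matrix cells (0 of 49, up to 6.12%, and 0 of 178, up to 1.69%). These limits cover detection of a UMI only, and do not limit the share of cells that express *Flt3*.

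At a finer resolution dendritic cell-like cells split, and *Flt3* was in both groups: 131 CPM (96.0 to 174) and 93.5 CPM (70.1 to 122) in the *Cd209a*-led group (64 and 87 cells), and 121 CPM (71.8 to 192) and 153 CPM (101 to 222) in the *Tnni2*-led group with *Xcr1* (18 and 26 cells). *Csf1r* parted them, with 72.3 CPM and 106 CPM in the *Cd209a*-led group and 0 and 1 UMI in the *Tnni2*-led group. Among cells with a *Flt3* UMI, *Csf1r* was also found in 22 of 25 control and 12 of 13 AdipoΔ/Δ Ly6Chigh cells, but in 6 of 37 and 9 of 48 dendritic cell-like cells. Over all cells of these kinds *Csf1r* was found in 83.7% and 82.3% of Ly6Chigh and 20% and 24.6% of dendritic cell-like cells, so these counts lie near the share that *Csf1r* has in each kind.

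Dividing cells, 18 in control and 35 in AdipoΔ/Δ (median 7091.5 and 10035 UMIs), held *Csf1r* at 40.5 CPM (16.3 to 83.5) and 229.8 CPM (191 to 275), ratio 5.67 (2.67 to 14.4) from 7 and 120 UMIs. *Csf2ra* had 2 and 69 UMIs there, ratio 11.4 (3.04 to 96.1), and *Csf2rb* 1 and 31 UMIs, ratio 10.3 (1.71 to 418). *Flt3* had 0 UMIs in control (up to 17.4 CPM) and 12 in AdipoΔ/Δ, 23.0 CPM (11.9 to 40.1). These ratios of *Csf1r*, *Csf2ra* and *Csf2rb* were thus the largest of all named kinds, and rest on few control UMIs. The 10 macrophage markers summed to 602 CPM in control (7 of 10 genes, *Apoe* first at 150.5, with *Mertk*, *Ms4a7* and *Fcgr1* at 0) and 3262 CPM in AdipoΔ/Δ (10 of 10, *C1qb* first at 825), and the part of the kinds of cell that divide in these receptor values was not tested.

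Over all cells the ratio of a receptor gene holds both its levels within classes and the mix of classes. *Csf3r* fell from 250.3 CPM (241 to 260.0) to 163 CPM (156 to 171), ratio 0.651 (0.613 to 0.691), while its neutrophil-like level rose. Neutrophil-like cells gave 83.6% and 82.9% of all *Csf3r* UMIs and were 13.8% and 8.58% of cells; with control levels at the AdipoΔ/Δ class mix the *Csf3r* ratio was 0.510, and with AdipoΔ/Δ levels at the control mix 1.33. With the cells kept here, the fall of *Csf3r* in the whole sort goes with a smaller share of neutrophil-like cells. That share depends on the mitochondrial limit: with 2% neutrophil-like cells were 172 of 1306 (13.2%) and 139 of 889 (15.6%) cells and the *Csf3r* ratio turned to 1.21, and with 5% they were 12.6% and 9.35% and the ratio was 0.766.

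*Csf2rb* fell from 124 CPM (118 to 131) to 88.9 CPM (83.5 to 94.6), ratio 0.715 (0.658 to 0.777); the mix alone gave 0.652 and levels alone 0.972. *Csf2ra* rose from 110.1 CPM (104 to 117) to 151 CPM (144 to 159), ratio 1.37 (1.28 to 1.48), with 1.18 from the mix and 1.14 from levels. The 2 chains of the granulocyte-macrophage receptor thus moved in opposite directions in the whole sort, *Csf2rb* mostly with the mix of classes and *Csf2ra* with both. *Csf1r* went from 328 CPM (317 to 339) to 385 CPM (373 to 396), ratio 1.17 (1.12 to 1.23) (mix 1.12, levels 1.13; 0.961 with a 2% mitochondrial limit). *Csf2rb2* went from 13.9 CPM (11.7 to 16.3) to 8.48 CPM (6.87 to 10.4), ratio 0.612 (0.469 to 0.797) (mix 0.840, levels 0.668), and *Flt3* from 10.1 CPM (8.32 to 12.2) to 10.9 CPM (9.03 to 12.97), ratio 1.07 (0.822 to 1.40) (mix 1.09, levels 1.04). *Csf2rb2* was thus the 1 receptor gene whose fall lay more in its levels than in the mix.

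**Figure D3:**
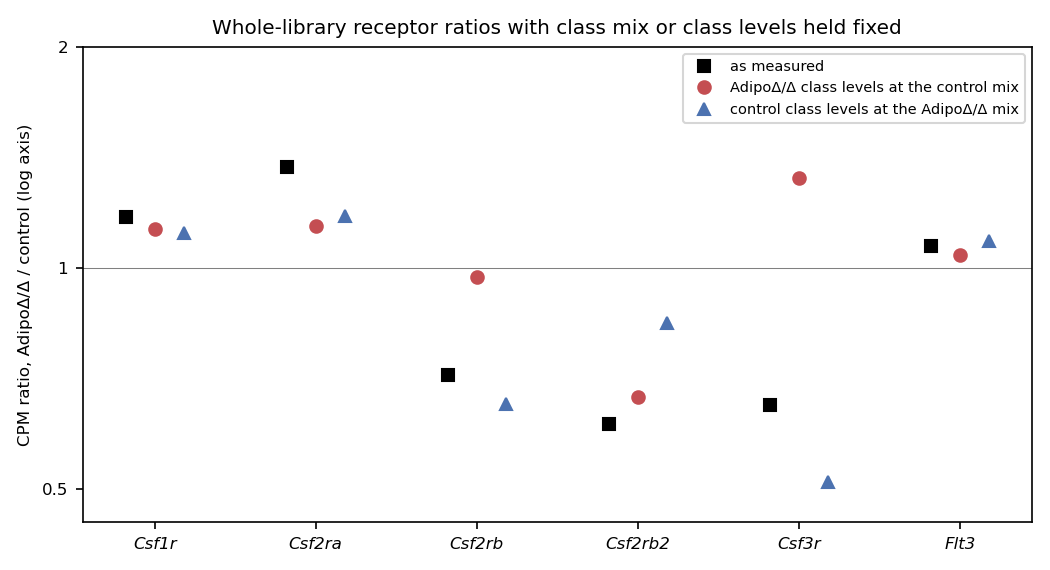
Ratio over all cells for each receptor gene, AdipoΔ/Δ over control: measured, with AdipoΔ/Δ class levels at the control class mix, and with control class levels at the AdipoΔ/Δ mix. *Csf3r* lies on opposite sides of 1 in the latter 2.

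The cells behind the UMIs of *Csf1r*, *Csf2ra* and *Csf2rb* changed between the libraries. Monocyte-like cells gave 83.9% of *Csf1r* UMIs in control and 42.4% in AdipoΔ/Δ, and macrophage-like cells 9.72% and 45.5%. For *Csf2ra* the monocyte-like part was 58.0% and 24.6%, and the macrophage-like part 10.6% and 52.4%. The bulk of *Csf1r* and *Csf2ra* mRNA thus sat in monocyte-like cells in control, and macrophage-like cells held the largest part in AdipoΔ/Δ, where they made up 30.2% of all UMIs against 4.89%. This mix depends on the mitochondrial limit. With 2% macrophage-like cells were 2.30% of control and 11.2% of AdipoΔ/Δ cells, beside 5.40% and 19.7% with the limit used here. Among AdipoΔ/Δ cells at 2%, Ly6Chigh cells were 11.8% and Ly6Clow cells 22.8%. With the limit used here they were 8.68% and 15.9%. Which class holds most *Csf1r* or *Csf2ra* UMIs at 2% is not given. For *Csf2rb* the macrophage-like part was 1.87% and 24.5%, below monocyte-like cells (58.4% and 35.0%) in both. *Flt3* stayed with dendritic cell-like cells, 62.4% and 65.0%.

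**Figure D4:**
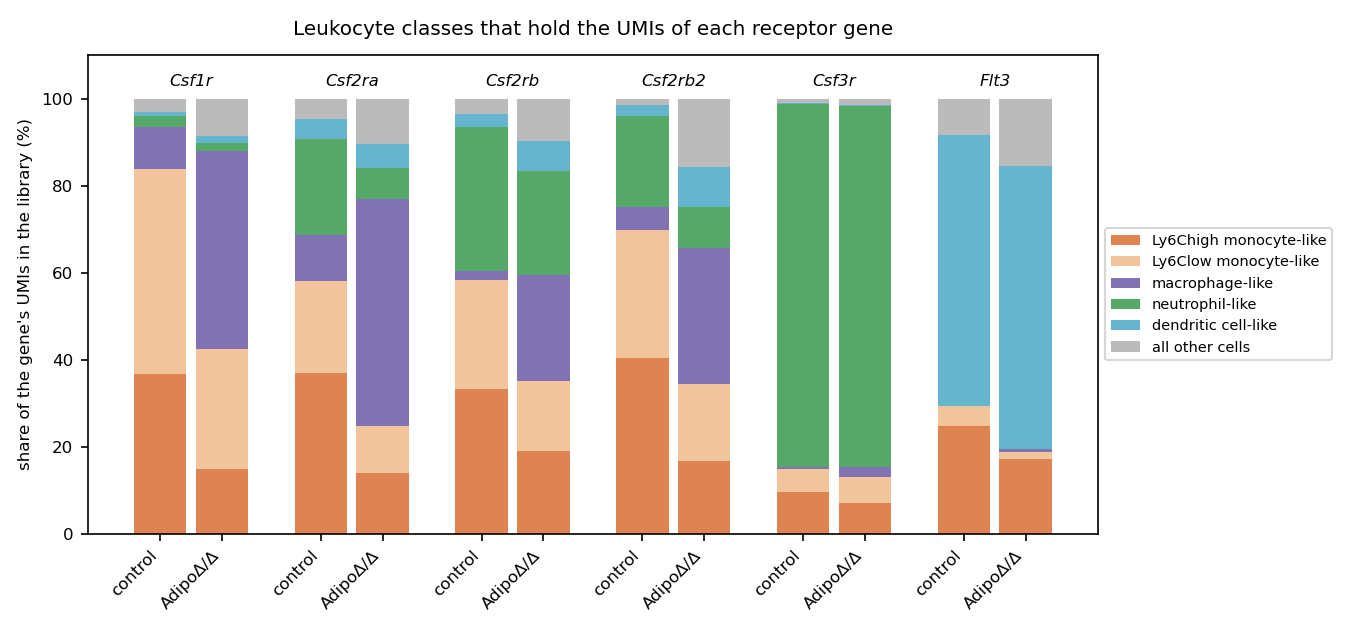
Percent of each receptor gene's UMIs that came from each class of cells, stacked, control and AdipoΔ/Δ side by side. Macrophage-like cells hold a larger part of *Csf1r*, *Csf2ra*, *Csf2rb* and *Csf2rb2* in AdipoΔ/Δ.

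The receptor genes were set against all genes with at least 20 UMIs in a class, at a line of 1.5-fold. In macrophage-like cells 1 of 5 receptor genes was higher (*Csf2rb*, beside 21.7% of all genes) and 2 were lower (*Csf2rb2* and *Csf3r*, beside 12.3% of all genes). The median log2 ratio was −0.17 against 0.10 for all genes. At the same cluster weights *Csf2rb* was 1.38 and no longer past the line, *Csf2rb2* was 0.187 and *Csf3r* 0.494. Control lipid-associated cells, which this weighting counts for more, held 4 *Csf2rb2* UMIs, at 141 CPM. The part of the neutrophil markers of resident cells, given beside *Csf3r*, was not tested. In monocyte-like cells 0 of 6 were higher (beside 11% of all genes) and 1 was lower (*Csf2rb2*, beside 4.16% of all genes), median 0.18 against 0.10. At the same cluster weights *Flt3* there was past the line at 1.51, from 7.37 and 11.1 CPM, and *Csf2rb2* was 0.593. In neutrophil-like cells 1 of 5 was higher (*Csf1r*; all genes 27.3%) and 1 was lower (*Csf2rb2*; all genes 5.28%), median 0.14 against 0.29. The ratios of *Csf1r* and *Csf3r* in neutrophil-like cells were thus above that of the median gene, and those of *Csf2rb*, *Csf2ra* and *Csf2rb2* below it.

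Lists of genes around the receptors (5 ligands, 4 other genes of the common-beta family, 13 transcription factors, 13 JAK-STAT genes and 13 adaptors) were read in the same 3 classes. In the macrophage-like class the lipid-associated part of the UMIs is larger in AdipoΔ/Δ, so ratios at the same cluster weights are given beside those past the line with either weights. In macrophage-like cells, where *Csf2rb* rose, *Il3ra*, a partner of the beta chains, went from 28.5 to 49.4 CPM, ratio 1.73 (1.02 to 3.16), weighted 1.27, the 1 gene tested of its family. Of 11 factors 1 was higher, *Egr2*, 20.9 and 61.1 CPM, ratio 2.92 (1.60 to 5.94), weighted 2.42, and 1 lower, *Runx1*, 124 and 75.1 CPM, ratio 0.608 (0.461 to 0.811), weighted 0.767. *Spi1*, the gene of PU.1, held 349.7 and 395 CPM, *Cebpb* 329 and 303 CPM (weighted ratio 0.584) and *Id2* 226 and 197 CPM. Of 10 JAK-STAT genes 1 was higher, *Socs3*, 13.3 and 24.0 CPM, ratio 1.80 (0.836 to 4.62), weighted 2.68, and of 13 adaptors 3 were higher, *Shc1*, ratio 1.98 (1.08 to 4.07), weighted 1.73, *Adam17*, ratio 1.61 (1.09 to 2.47), weighted 1.12, and *Gab2*, ratio 1.58 (0.729 to 4.07), weighted 1.11, and 1 lower, *Sos1*, ratio 0.532 (0.282 to 1.08), weighted 0.692. *Jak1* held 169 and 157 CPM, *Tyrobp* 1562 and 2095 CPM and *Flt3l*, the only ligand with enough UMIs, 5.70 and 8.18 CPM, ratio 1.43 (0.443 to 7.37), weighted 1.87. *Cebpe* held 9.50 and 11.7 CPM, ratio 1.23 (0.485 to 3.99), weighted 1.58. In all, 6 of 36 list genes (16.7%) were higher in macrophage-like cells, beside 21.7% of all genes, and 2 (5.56%) were lower, beside 12.3%. At the same cluster weights 5 were higher (*Egr2*, *Socs3*, *Shc1*, *Flt3l* and *Cebpe*) and 1 lower (*Cebpb*), so only 3 of the 8 genes past the line stayed there. The share of all genes past the line at these weights is not given, so the weighted counts cannot be set against other genes.

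In monocyte-like cells 0 of 9 factors and 0 of 13 adaptors passed 1.5-fold: *Spi1* held 687 and 660.1 CPM, *Cebpb* 1659 and 1574 CPM, *Tyrobp* 3362 and 3224 CPM. The 2 list genes that passed, both higher among 11 JAK-STAT genes, were *Socs1*, 2.87 and 7.56 CPM, ratio 2.64 (1.19 to 6.05), and *Pim2*, 2.87 and 4.45 CPM, ratio 1.55 (0.600 to 3.92), weighted 2.86 and 1.44. *Il3ra* held 31.8 and 39.6 CPM and *Flt3l* 7.65 and 11.1 CPM. In all, 2 of 35 list genes (5.71%) were higher, beside 11% of all genes, and 0 were lower, beside 4.16%.

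In neutrophil-like cells 8 of 27 list genes (29.6%) were higher, beside 27.3% of all genes, and 1 (3.70%) was lower, beside 5.28%, so the lists moved about as often as other genes there. Higher were the ligand gene *Csf1*, 50.6 and 100.5 CPM, ratio 1.98 (1.33 to 2.95); the factors *Cebpa*, ratio 3.14 (1.27 to 8.23), *Id2*, ratio 2.17 (1.24 to 3.81), and *Runx1*, ratio 2.02 (1.13 to 3.62), 3 of 6; the JAK-STAT genes *Stat5a*, ratio 2.39 (0.987 to 5.89), and *Tyk2*, ratio 1.52 (0.564 to 3.92), 2 of 9; and the adaptors *Adam17*, ratio 1.96 (1.17 to 3.29), and *Plcg2*, ratio 1.53 (1.04 to 2.24), 2 of 11. *Cebpe* was lower, 43.1 and 5.69 CPM, ratio 0.132 (0.0262 to 0.410) from 46 and 3 UMIs. With the *Retnlg*-led and *Camp*-led groups at the same weights all 9 stayed past the line (*Csf1* 2.16, *Cebpa* 3.66, *Id2* 2.20, *Runx1* 2.12, *Stat5a* 2.58, *Tyk2* 1.69, *Adam17* 2.31, *Plcg2* 1.54 and *Cebpe* 0.185), joined by *Sh2b3* at 1.51. A share of all genes at these weights is not given here either. The macrophage markers were also higher in the same cells, as given beside *Csf1r*, and their part in these ratios was not tested. *Spi1* held 890.1 and 1097 CPM there, *Pim1* 1159 and 1486 CPM and *Socs3*, a feedback gene of *Csf3r* signalling, 325 and 415 CPM.

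**Figure D5:**
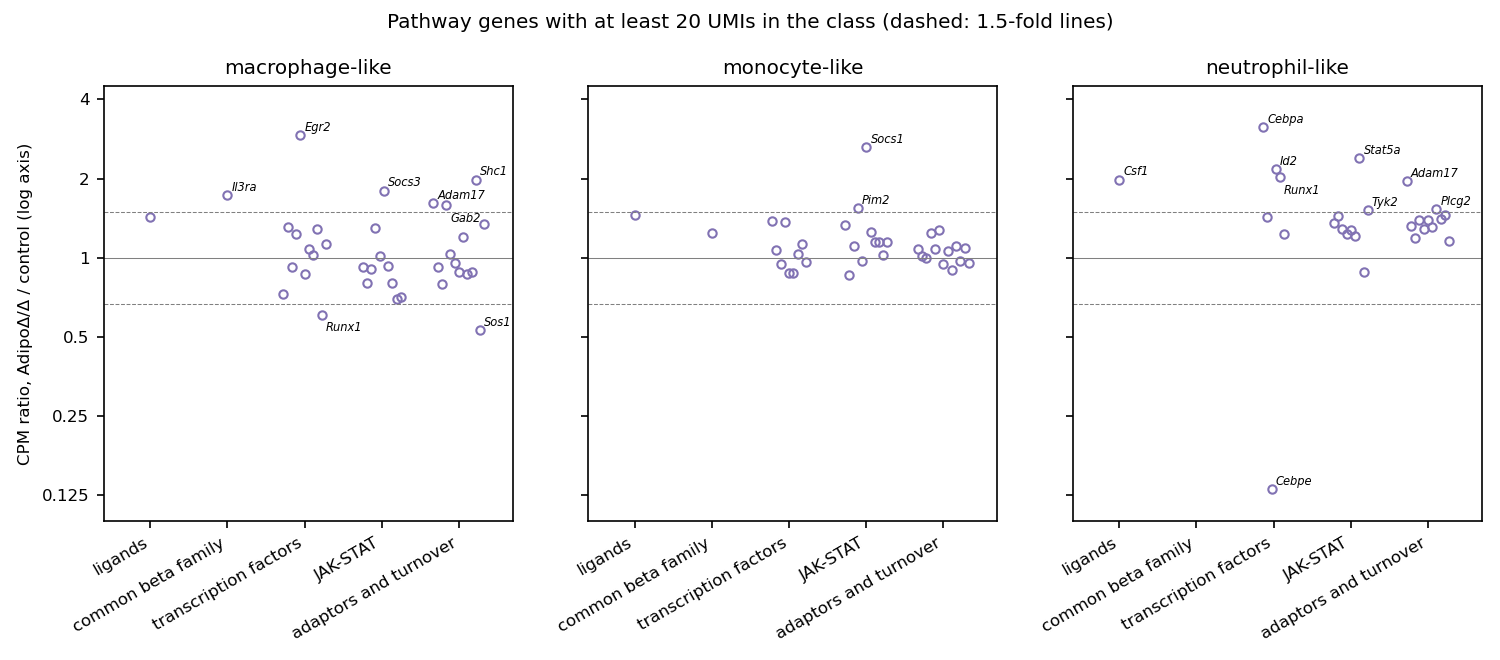
Ratio of CPM, AdipoΔ/Δ over control, of list genes with at least 20 UMIs in macrophage-, monocyte- and neutrophil-like cells (log axis, dashed lines at 1.5-fold), genes beyond the lines labelled. Most genes lie between the lines in macrophage- and monocyte-like cells.

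Apart from *Flt3l*, ligand mRNA for the receptors was scarce in the sorted cells. *Csf1* had 70 UMIs in control and 85 in AdipoΔ/Δ, of which 54 and 53 were in neutrophil-like cells, in 44 of 314 and 37 of 173 of them. *Csf2* had 27 and 13 UMIs, 13 and 3 in NK cell-like cells and 11 and 4 in an unnamed *Mcpt4*-led cluster. *Flt3l* held 65.5 CPM (42.0 to 97.4) and 66.8 CPM (47.0 to 92.0) in *Cd3g*-led T cell-like and 38.6 CPM (29.1 to 50.3) and 48.4 CPM (37.2 to 61.9) in NK cell-like cells. *Csf3* had 0 UMIs in each library and *Il34* 0 and 2. For the other receptors that use the *Csf2rb* product, *Il3* had 0 UMIs in each library, *Il5* 0 and 3, *Il5ra* 4 and 4, and *Il3ra* 203 and 357. T, B and NK cell-like cells, in which *Flt3* itself was nearly absent, held 141 of 224 and 122 of 229 *Flt3l* UMIs, monocyte-like cells 32 and 25 and macrophage-like cells 3 and 28. *Flt3l* was thus in both lymphoid and myeloid kinds, and *Csf1* mostly in neutrophil-like cells.

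Across 30 points (clusters of at least 20 cells in either library, so points of 1 library share its depth and handling), the levels of 7899 genes were correlated with each receptor gene, as description only. *Csf1r* ran closest with *Clec4a3* (r 0.957; 574 and 657 CPM in *Cd300e*-led and 14.1 and 49.3 CPM in neutrophil-like cells), *Clec4a1* (0.956) and *Gm21188* (0.946). *Csf2ra* ran with *Ralb* (0.953), *Tgfbi* (0.948) and *Ccl6* (0.942), and *Csf2rb* with *Emilin2* (0.948) and *Tpd52* (0.947). *Csf3r* ran with *Nlrp3* (0.950), *Rnf149* (0.941) and *Trpm2* (0.936; 158 and 216 CPM in neutrophil-like cells). *Flt3* ran with *Fcor* (0.895), *Cd209a* (0.804; 937 and 812 CPM in dendritic cell-like cells) and *Ece1* (0.748). *Csf2rb2* ran with *Sirpb1c* (0.904), *Csf2rb* (0.904) and *Cd300a* (0.899), so the 2 beta-chain genes ran close to each other. Among the other pairs of receptor genes r was 0.871 for *Csf2ra* and *Csf2rb*, 0.865 for *Csf1r* and *Csf2ra* and −0.0146 for *Csf3r* and *Flt3*.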

How the data were processed

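The deposited files hold UMI counts per gene and barcode for 1 control and 1 AdipoΔ/Δ library of sorted CD45+ cells; the authors made them with Cell Ranger 4.0.0 on mm10. They hold 2597 and 2381 barcodes with 11327187 and 12028844 UMIs, and 4 barcodes occur in both libraries. The members and lists were chosen with earlier results of these data known.

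Kept were 2279 (87.8%) and 2016 (84.7%) barcodes, those with 200 genes or more and a mitochondrial share of up to 10%. The limit of 2% in the study's methods was not used, since 51.4% and 37.7% of all barcodes pass it, whatever their number of genes (1306 and 889 barcodes also have 200 genes). The paper reports more cells left in each library after its filters than pass 2% here, and the reason is not known. Scrublet (Scanpy 1.11.5) marked 8 and 6 barcodes (0.308% and 0.252%) as doublets, and none was removed. Each library was normalised with sctransform 0.4.2 in Seurat 5.3.0 (R 4.3.3), regressing out mitochondrial percent, and integrated by anchors on 1995 features without the members (2000 less 5 members), with 20 principal components and resolution 1, giving 17 clusters. Clusters were named from marker lists. A name needed at least 2 markers of its list among the 10 leading genes, more than of any other naming list. It also needed at least 3 markers detected in 10% of cells. These thresholds were set after the data were seen, and leave 134 of 2279 (5.88%) and 288 of 2016 (14.3%) cells unnamed. Erythroid genes were not a naming list. The B cell-like name thus rests on 3 B cell markers, although *Hbb-bs*, *Hba-a2*, *Hba-a1* and *Hbb-bt* are also among the 10 leading genes.

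CPM are summed UMIs over the summed total of a population. Intervals (SciPy 1.17.1, NumPy 2.4.6) are exact Poisson for CPM, Clopper-Pearson for shares and conditional binomial for ratios, at 95%, and were tested on simulated data. A count of 0 is given with the limit that 3 counts would set. Cells were thinned once to 1000 UMIs for shares at equal depth. The mix of 11 classes was exchanged between libraries. List genes needed 20 UMIs over both libraries in a class and a 1.5-fold change. The genes named are the 6 members, the 3 genes of highest correlation with each (at least 200 UMIs, log2 of CPM plus 10), the genes with most UMIs or past 1.5-fold in each list, the 3 leading genes of clusters, and markers that move with a result. Values of 2 genes that this rule names are not reported here. Transcripts were compared in windows of 55 bases, and promoters are those of RefSeq on GRCm38.p6. No p-values were computed, as each group has 1 library.

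Alternatives were mitochondrial limits of 2% and 5%, at least 500 genes, doublets removed, members kept among the features, resolutions 0.5 and 2.0, 30 components, no integration, mean per-cell CPM, the deepest 5% of cells left out, weighted macrophage-like clusters, shares thinned to 2000 UMIs or unthinned, and list thresholds of 2-fold or 50 UMIs. Another 5 were added after the data were seen: neutrophil markers left out of totals, weighted neutrophil-like clusters, the lipid-associated cluster left out, and lists read with weighted clusters, in macrophage- and monocyte-like cells and in neutrophil-like cells.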

Additional observations from a re-analysis of the deposited data

Results flagged for a closer look

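*Csf2rb* changed in opposite directions in 2 kinds of cell between the same 2 libraries, which is why it is listed here. In *Gngt2*-led Ly6Clow monocyte-like cells the ratio of AdipoΔ/Δ over control was 0.730 (0.564 to 0.937; 224 and 89 UMIs), and in matrix macrophage-like cells it was 2.55 (1.42 to 5.05; 12 and 153 UMIs). In the *Gngt2*-led cells the 10 macrophage markers went from 1668 to 4092 CPM and the 10 neutrophil markers from 247 to 79.1 CPM. The part of both in the lower *Csf2rb* was not tested. The difference between the 2 ratios was not tested, since each group has 1 library. The matrix ratio rests on 12 control UMIs, and at 1000 UMIs per cell the shares of matrix cells with a *Csf2rb* UMI were 6.12% (1.28 to 16.9) and 8.24% (4.58 to 13.4).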

How the results depend on the processing

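Of 256 alternative values for 22 ratios, 230 lay inside the reported ratio's interval, 18 moved outside it, and 8 turned to the other side of 1 from a ratio whose interval excludes 1; the cause was not tested. In all, 243 lay on the same side of 1 and 13 on the other. The 5 beyond those 8, of ratios whose intervals hold 1, were *Csf2ra* in macrophage-like cells (0.854, 2% mitochondrial limit), *Csf2rb* in Ly6Chigh cells (1.01, without integration) and neutrophil-like cells (0.993, neutrophil markers out of the totals), and *Flt3* in dendritic cell-like cells (1.07 without integration, 1.10 with mean per-cell CPM). With the 2% mitochondrial limit, *Csf1r* turned in macrophage-like cells (1.33), dendritic cell-like cells (0.750) and all cells (0.961), and *Csf3r* in all cells (1.21); *Csf2ra* moved outside its interval in macrophage-like cells (0.854) and all cells (1.24), *Csf2rb* in all cells (0.784) and *Csf3r* in neutrophil-like cells (1.53). With 5%, *Csf1r* moved in Ly6Clow cells (1.20) and all cells (1.06), and *Csf3r* in neutrophil-like cells (1.53) and all cells (0.766). With at least 500 genes *Csf3r* in neutrophil-like cells was 1.48. Without integration *Csf1r* in dendritic cell-like cells turned (0.670) and in Ly6Clow cells was 1.24; without the deepest 5% of cells the former was 0.991. With mean per-cell CPM, *Csf1r* was 1.29 in Ly6Clow cells and 1.41 in all cells, *Csf2ra* 1.24 and *Csf2rb* 0.830 in all cells, and *Csf3r* 1.28 in neutrophil-like, 1.35 in monocyte-like and 0.816 in all cells. *Csf1r* in macrophage-like cells was 1.13 with clusters weighted and, in alternatives chosen after the data were seen, 1.04 without the lipid-associated cluster; *Csf3r* in neutrophil-like cells was 1.24 without neutrophil markers in the totals. By range, *Csf3r* in neutrophil-like cells ran from 1.24 to 1.53, *Csf2rb* in Ly6Clow cells from 0.697 to 0.807, *Csf1r* in neutrophil-like cells from 1.53 to 2.15 and *Csf2rb* in macrophage-like cells from 1.30 to 2.07.

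Shares at 2000 UMIs and unthinned were 94.5% and 96.2% for *Csf3r* in control neutrophil-like cells and 99.1% and 98.3% in AdipoΔ/Δ. For *Csf1r* in Ly6Clow cells they were 82.4% and 85.9% in control and 87.6% and 87.5% in AdipoΔ/Δ, and for *Csf2rb* there 27.5% and 41.3%, and 22.7% and 30.0%. A 2-fold line took the higher list genes from 6 to 1 in macrophage-like, 2 to 1 in monocyte-like and 8 to 4 in neutrophil-like cells, and the lower ones in macrophage-like cells from 2 to 0. With clusters weighted, chosen after the data were seen, 5 list genes were higher and 1 lower in macrophage-like cells and 1 higher in monocyte-like cells, and 9 higher and 1 lower in neutrophil-like cells. A minimum of 50 UMIs left 0 higher in monocyte-like cells and 5 higher and 0 lower in neutrophil-like cells. These counts have no share of all genes beside them. They show only how the list counts depend on thresholds and weights, not whether the lists differ from other genes. No paired analysis was possible because each group has 1 library. Depth limits *Csf2rb2* (149 and 96 UMIs) and *Flt3* outside dendritic cell-like cells, where most populations hold under 30 UMIs.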
